A study of Mus musculus with 9 samples.

Results

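Neutrophils are made in bone marrow and carry granules that are filled in order as the cell matures. Promyelocytes load the primary (azurophil) granules with serine proteases and myeloperoxidase, later precursors fill the secondary (specific) and tertiary granules with lactoferrin, cathelicidin and gelatinase, and the cytosol of the mature cell is packed with the S100A8 and S100A9 proteins. Each group of genes is transcribed mostly at its own stage, so the levels of their mRNAs depend in part on the stages a tissue holds. Whether other cells of the tissue add to these mRNAs was not tested. The 10 genes described here are 4 primary granule genes (Elane, Mpo, Prtn3 and Ctsg) and 6 genes of the later granules and the cytosol (Ltf, Ngp, Camp, Lcn2, S100a8 and S100a9). They were chosen by gene symbol, with earlier results of these data known. All 10 were among the 27179 genes of the count table, and all 10 passed the filter on low counts, which left 16329 genes to be tested.

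Counts came from poly(A) RNA of whole mandibles including teeth, taken from 6-month-old male C57BL/6 mice. There were 5 wild-type (WT) mice and 4 mice labelled FcγRIIB-/-, a label that stands for a deletion of the inhibitory Fc gamma receptor IIB and is used for a mouse model of lupus. Each mouse gave 1 library. A mandible pulverized whole holds bone, teeth, marrow, muscle and mucosa, so the mRNA of neutrophils is a small part of each library. In such bulk tissue, fewer cells of a type and less RNA per cell cannot be told apart.

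The WT libraries held 24158960 to 26787359 counts each, and those labelled FcγRIIB-/- held 21453880 to 28991631. Fcgr2b, the targeted gene, had 442 to 954 counts in WT and 562 to 757 counts in the libraries labelled FcγRIIB-/- (log2 fold change 0.21, SE 0.20, adjusted p = 0.442, edgeR's quasi-likelihood test), and which exons the allele lacks is not given in the sources used here. The groups are therefore named by their labels. Adjusted p-values here and throughout are Benjamini-Hochberg values over all tested genes. Markers of the labelled tissue were present: the 8 osteoblast genes, among them Col1a1, summed to between 28064 and 44111 CPM (read counts scaled to library size with TMM, edgeR's trimmed-mean factors) in WT and between 30191 and 40785 CPM in the libraries labelled FcγRIIB-/-. Most of this sum was Col1a1, with a mean of 31252 CPM in WT and 32590 CPM in the other group, so it says little of the other genes. Of all tested genes, edgeR called 3144 lower (19.3%) and 2289 higher (14.0%) in the labelled FcγRIIB-/- group (adjusted p under 0.05). Scaling by the library total alone moved this split to 3781 lower (23.2%) and 1309 higher (8.02%). Over all tested genes the median log2 fold change was 0.0055.

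The promoters of the 10 genes were read first, because the granule genes are known targets of the myeloid transcription factors PU.1, C/EBP and RUNX1. Each window covered the 250 bases before the RefSeq start of the gene (GRCm38.p6, which is mm10), 1 window per gene, and was searched on both strands for GAGGAA (PU.1), TTNNGNAA (C/EBP) and TGTGGT (RUNX). The letters GAGGAA were in the windows of 7 of the 10 genes, against 23.3% of 32851 promoters of the same length: all 4 primary granule genes and 3 of the 6 later genes held them. The letters TTNNGNAA were in 5 of the 10, against 36.8% of all promoters, and these were 5 of the 6 later genes and 0 of the 4 primary granule genes. TGTGGT was found in Ctsg and S100a9, 2 of the 10, against 14% of all promoters. These matches describe letters in a window, not bound sites.

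The windows of 4 genes are shown, on the strand of the gene and 5′ to 3′, with every match in capitals. Elane and Prtn3 are neighbouring genes of the primary granule, and Ngp and S100a8 are the later genes with the largest and the smallest fall. Their windows lie at chr10:79886062-79886311, chr10:79879417-79879666, chr9:110419558-110419807 and chr3:90668821-90669070, all on the plus strand.
Elane: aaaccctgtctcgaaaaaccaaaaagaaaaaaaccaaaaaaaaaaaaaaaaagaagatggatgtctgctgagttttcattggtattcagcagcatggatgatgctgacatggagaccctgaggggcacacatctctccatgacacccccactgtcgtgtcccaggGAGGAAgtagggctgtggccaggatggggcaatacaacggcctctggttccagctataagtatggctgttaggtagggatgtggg
Prtn3: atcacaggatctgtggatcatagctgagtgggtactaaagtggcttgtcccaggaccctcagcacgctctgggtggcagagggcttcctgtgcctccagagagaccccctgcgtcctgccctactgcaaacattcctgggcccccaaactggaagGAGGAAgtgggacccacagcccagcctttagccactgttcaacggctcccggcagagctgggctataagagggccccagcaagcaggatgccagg
Ngp: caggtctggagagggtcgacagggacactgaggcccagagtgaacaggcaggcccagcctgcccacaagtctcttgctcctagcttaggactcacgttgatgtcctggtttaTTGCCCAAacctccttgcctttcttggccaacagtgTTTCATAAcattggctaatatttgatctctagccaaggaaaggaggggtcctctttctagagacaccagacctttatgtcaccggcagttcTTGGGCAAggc
S100a8: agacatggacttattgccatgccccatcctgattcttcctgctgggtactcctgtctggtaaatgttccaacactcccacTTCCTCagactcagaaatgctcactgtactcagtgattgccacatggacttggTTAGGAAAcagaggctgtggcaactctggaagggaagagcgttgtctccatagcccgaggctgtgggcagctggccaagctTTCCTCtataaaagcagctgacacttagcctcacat
The Elane and Prtn3 windows each held 1 match to GAGGAA, at 85 and 95 bases before the start, counted at its first base. The Ngp window held 3 matches to TTNNGNAA and none to the other motifs, and the S100a8 window held 1 match to TTNNGNAA and 2 to GAGGAA in reverse orientation (TTCCTC).

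All 4 primary granule genes fell in the mice labelled FcγRIIB-/-, to between 7.74% and 13.3% of the WT mean CPM, and in each of them every library labelled FcγRIIB-/- lay below every WT library. Of all tested genes, 17.5% were separated in that direction. The median log2 fold change of the 4 genes was -3.34. No member of the list was higher or failed the test.

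Elane encodes neutrophil elastase, a serine protease of the primary granule, and lies at chr10:79886312-79888216. The WT mice had 31.0, 31.4, 19.4, 37.4 and 58.9 CPM, and the mice labelled FcγRIIB-/- had 7.50, 0.970, 1.44 and 1.11 CPM (replicates in order). Replicate 1 of the labelled FcγRIIB-/- mice thus stood apart from the other 3, whose libraries held 21 to 34 Elane reads against 504 to 1509 in WT. The fall was -3.62 on the log2 scale (SE 0.58, adjusted p = 0.00165, edgeR's quasi-likelihood test), from 35.6 ± 14.6 CPM (SD, n = 5) to 2.76 ± 3.17 CPM (SD, n = 4).

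Mpo encodes myeloperoxidase, the heme enzyme that makes hypochlorous acid, and lies at chr11:87793784-87804412. Its levels were 87.0, 95.1, 52.5, 102 and 190.5 CPM in WT and 23.3, 2.31, 5.0 and 4.16 CPM in the libraries labelled FcγRIIB-/-. As for Elane, replicate 5 was the highest WT mouse, replicate 1 was the highest of the other group, and the groups did not overlap. The log2 fold change was -3.56 (SE 0.64, adjusted p = 0.00268, edgeR). Mpo overlaps an annotated antisense gene, Gm11505, and the strand setting of the counting is not stated, so reads of the pair could not be told apart here.

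Prtn3 encodes proteinase 3, a close relative of elastase, and lies beside Elane at chr10:79879667-79883174. WT libraries held 27.3, 27.4, 18.3, 31.8 and 44.9 CPM, and those labelled FcγRIIB-/- held 10.2, 1.76, 2.67 and 1.32 CPM. Its log2 fold change of -2.86 (SE 0.53, adjusted p = 0.00312, edgeR) was the smallest of the 4 primary granule genes. Replicate 1 of the mice labelled FcγRIIB-/- kept 34.0% of the WT mean, and the other 3 kept 4.40% to 8.92%. In the annotation Prtn3 overlaps Plppr3 on the opposite strand.

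Ctsg encodes cathepsin G, a serine protease with chymotrypsin-like activity, and lies at chr14:56099885-56102574. It had the lowest levels of the 10 genes, with 12.0, 14.0, 7.40, 15.9 and 24.2 CPM in WT and 3.71, 0.878, 1.06 and 0.862 CPM in the libraries labelled FcγRIIB-/-. The latter rest on 106, 19, 25 and 17 reads. The groups were nonetheless separate, with a log2 fold change of -3.12 (SE 0.49, adjusted p = 0.00146, edgeR).

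The 6 later genes were also all lower and all without overlap, and their median log2 fold change was -2.93. They spanned a wider range than the primary granule genes, from -4.48 for Ngp to -2.19 for S100a8. In all, 10 of the 10 genes fell by 2 or more on the log2 scale and passed the test, as did 2.66% of all tested genes.

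**Figure D1:**
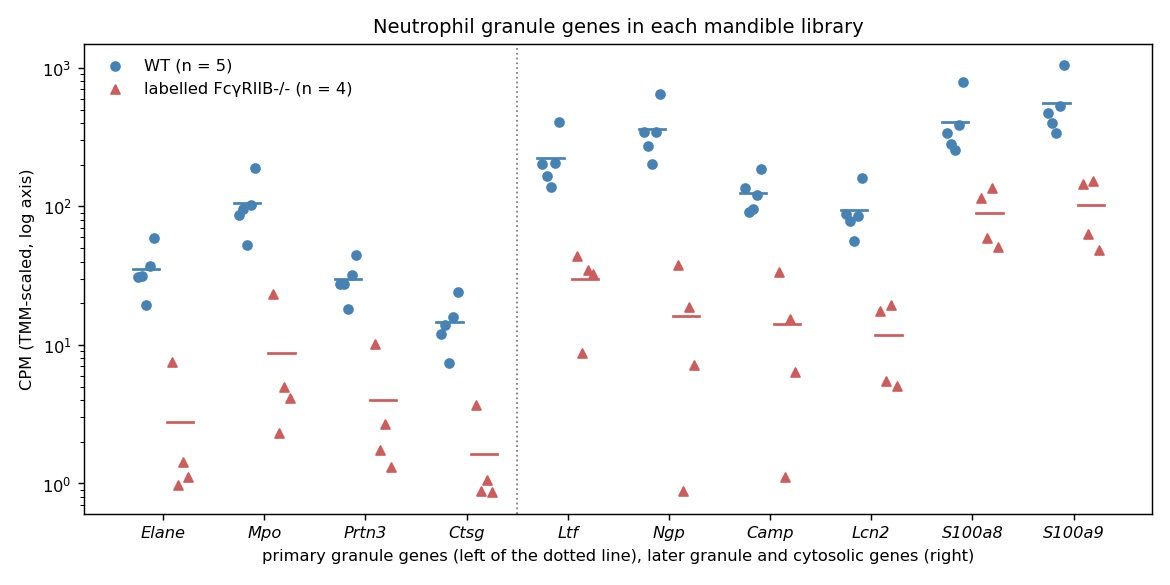
CPM of each gene (log axis) in each of the 5 WT libraries (circles) and the 4 libraries labelled FcγRIIB-/- (triangles), with horizontal lines at the group means. The groups are separate in all 10 genes, from Ctsg at 7.40 to 24.2 CPM in WT against 0.862 to 3.71 CPM, to S100a9 at 336 to 1044 CPM in WT against 48.3 to 153 CPM.

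Ltf encodes lactoferrin, the iron-binding protein that defines the secondary granule, and lies at chr9:111019292-111042766. WT mice had 203, 166, 139, 204 and 410.0 CPM. The mice labelled FcγRIIB-/- had 44.1, 8.69, 35.0 and 32.8 CPM, so that here replicate 2 was low and the other 3 were close to each other. The log2 fold change was -2.89 (SE 0.46, adjusted p = 0.00156, edgeR).

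Ngp encodes neutrophilic granule protein, a cystatin-like protein abundant in maturing mouse granulocytes, and lies at chr9:110419808-110423012. It was measured at 346, 274, 203, 346 and 649 CPM in WT and at 37.5, 0.878, 18.9 and 7.15 CPM in the libraries labelled FcγRIIB-/-. With 19 reads in replicate 2 against 5273 to 16613 in WT, this gene fell the most of the 10. Its log2 fold change was -4.48 (SE 0.80, adjusted p = 0.00260, edgeR), and its mean was 22.6 times higher in WT. The highest of the labelled FcγRIIB-/- libraries was 42.7 times the lowest, the widest spread among the 10 genes, while the WT libraries differed by at most 3.62 times in any of the 10.

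Camp encodes the precursor of cathelicidin, an antimicrobial peptide stored in the secondary granule, and lies at chr9:109847377-109849456. Its WT values of 136, 91.1, 96.5, 120.0 and 186 CPM stood against 33.4, 1.11, 15.4 and 6.39 CPM. The log2 fold change was -3.14 (SE 0.65, adjusted p = 0.00533, edgeR), and the spread of 30.1 times within the libraries labelled FcγRIIB-/- was the widest after that of Ngp. Camp was the only one of the 10 genes in which replicate 2, and not replicate 3, was the lowest WT library.

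Lcn2 encodes lipocalin 2, which binds bacterial siderophores, and lies at chr2:32384637-32387739. Levels were 88.1, 78.3, 55.9, 85.9 and 161 CPM in WT and 17.4, 5.50, 19.4 and 5.07 CPM in the libraries labelled FcγRIIB-/-. The latter fell into a higher pair, replicates 1 and 3, and a lower pair, replicates 2 and 4. The log2 fold change was -2.97 (SE 0.45, adjusted p = 0.00133, edgeR).

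S100a8 and S100a9 encode the calcium-binding subunits of calprotectin, which makes up much of the neutrophil cytosol, and lie near each other at chr3:90669071-90670034 and chr3:90692630-90695721. S100a8 was at 338, 284, 254, 387 and 788 CPM in WT and at 114, 58.9, 135 and 51.1 CPM in the other group. S100a9 was at 471, 400.1, 336, 533 and 1044 CPM in WT and at 144, 63.6, 153 and 48.3 CPM. Both repeated the 2 pairs seen for Lcn2, with replicates 1 and 3 above replicates 2 and 4. These were the smallest falls of the 10 genes, at -2.19 for S100a8 (SE 0.40, adjusted p = 0.00299) and -2.44 for S100a9 (SE 0.43, adjusted p = 0.00254, both by edgeR). The libraries labelled FcγRIIB-/- kept 12.5% to 32.9% of the WT mean of S100a8.

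Per length of transcript, the order of the WT levels ran from the cytosolic proteins to the proteases. S100a9 was at 1067 CPM per kb of exon, followed by S100a8 at 844, Ngp at 298, Camp at 166, Lcn2 at 102, Ltf at 80.1, Mpo at 36.3, Elane at 36.2, Prtn3 at 29.2 and Ctsg at 14.7 CPM per kb. Each gene was above the next in all 5 WT mice, except that Mpo was above Elane in 2 of 5. In the libraries labelled FcγRIIB-/- the mean levels were 196 for S100a9, 185 for S100a8, 18.5 for Camp, 13.2 for Ngp, 12.9 for Lcn2, 10.8 for Ltf, 3.88 for Prtn3, 2.99 for Mpo, 2.80 for Elane and 1.62 CPM per kb for Ctsg. Camp stood above Ngp in all 4 of these mice, the reverse of all 5 WT mice, whereas Ngp and Lcn2 changed order from mouse to mouse, with Ngp higher in 2 of 4.

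How much of the WT level was left in each mouse labelled FcγRIIB-/- differed between the mice. Replicate 1 kept a median of 23.7% of the WT mean over the 4 primary granule genes and 22.8% over the 6 later genes. Replicate 2 kept 4.30% and 4.87%. Replicate 3 kept 5.97% of the primary but 18.1% of the later genes, and replicate 4 kept 4.17% and 7.04%. Replicate 3 thus resembled replicates 2 and 4 in its primary granule genes and replicate 1 in its later genes, most of all in Lcn2, S100a8 and S100a9, where it was the highest of the 4. The highest library was replicate 1 in the remaining 7 genes, and the lowest was replicate 2 in 5 genes and replicate 4 in 5.

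**Figure D2:**
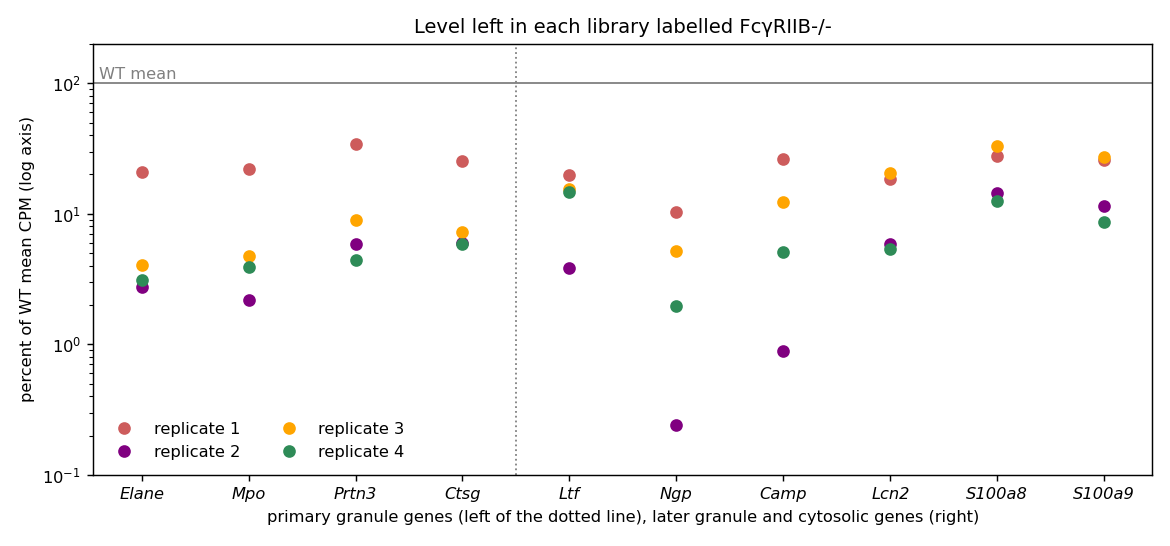
Level of each gene in each library labelled FcγRIIB-/- as a percent of the mean CPM of the 5 WT libraries (log axis, horizontal line at the WT mean). Replicate 1 (red) is the highest in the 4 primary granule genes, between 21.1% and 34.0%, and Ngp in replicate 2 is the lowest point, at 0.241%.

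Removing replicate 1 of the mice labelled FcγRIIB-/- moved the median log2 fold change of the primary granule genes from -3.34 to -4.37 and that of the later genes from -2.93 to -3.18. The single values then were -4.91 for Elane, -4.78 for Mpo, -3.95 for Prtn3, -3.97 for Ctsg, -5.33 for Ngp and -4.03 for Camp. Without WT replicate 5, the highest WT library in all 10 genes, the medians were -3.03 and -2.60. In each of the 9 fits that left out 1 mouse all 10 genes remained lower at an adjusted p under 0.05, and the highest of those adjusted p was 0.0187, for Camp without replicate 3 of the mice labelled FcγRIIB-/- (edgeR).

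Whether the primary granule genes fell more than the later ones was asked within each mouse, by subtracting the mean log2 CPM of the 6 later genes from that of the 4 primary granule genes. The difference was -2.88, -2.47, -2.98, -2.63 and -2.87 in WT and -2.46, -2.41, -4.17 and -3.35 in the libraries labelled FcγRIIB-/-. The WT mice lay within a narrow range (mean -2.77, SD 0.21, n = 5), and the mice labelled FcγRIIB-/- lay on both sides of it (mean -3.10, SD 0.84, n = 4). The groups overlapped, and the difference of their means, -0.33, became 0.024 without replicate 3 of the mice labelled FcγRIIB-/-. It was smaller than the spread between the mice labelled FcγRIIB-/-.

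**Figure D3:**
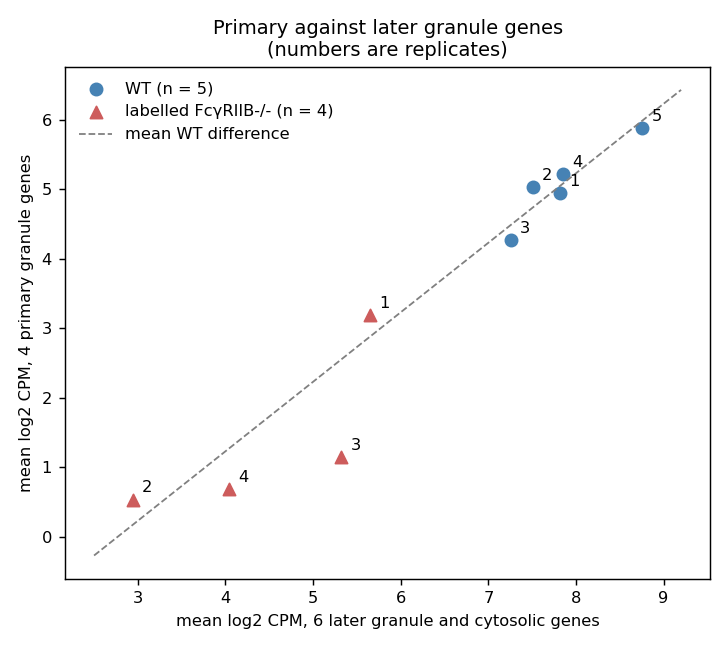
Mean log2 CPM of the 4 primary granule genes against that of the 6 later genes in each library, numbered by replicate, with a dashed line at the mean WT difference of -2.77. Replicates 3 and 4 of the mice labelled FcγRIIB-/- lie below the line (-4.17 and -3.35), and replicates 1 and 2 lie above it (-2.46 and -2.41).

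Ratios of read counts between single genes within a library do not depend on its scaling, and they separated the groups for some pairs. Of the 45 pairs of the 10 genes, 16 had ratios that did not overlap between the groups, which is near the share among all gene pairs (30.0% of 113063203 pairs, counting genes with 10 or more reads in each library). The pairs therefore are given for their sizes and not as a count that marks these genes. The widest were those with Ngp. Ngp to S100a8 was between 0.799 and 1.02 in WT and 0.328, 0.0149, 0.139 and 0.140 in the libraries labelled FcγRIIB-/-. Ltf to Ngp was between 0.587 and 0.681 in WT and 1.18, 9.89, 1.86 and 4.59 in the other group. The ratio of Ngp to Camp, both of the secondary granule, was between 2.11 and 3.48 in WT and 1.13, 0.792, 1.23 and 1.12 in the libraries labelled FcγRIIB-/-. Its spread there was like that of WT (log2 SD 0.28, n = 4, against 0.27, n = 5), although both genes differed widely between those mice. The ratios of replicate 2 of the mice labelled FcγRIIB-/- rest on 19 reads of Ngp and, for Ngp to Camp, 24 of Camp.

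Among the primary granule genes 3 of 6 pairs were separate, beside 30.0% of all gene pairs. Elane to Prtn3 was between 1.06 and 1.31 in WT and 0.738, 0.553, 0.540 and 0.846 in the libraries labelled FcγRIIB-/-, and Elane to Ctsg was between 2.23 and 2.63 against 2.02, 1.11, 1.36 and 1.29. Elane to Mpo overlapped, at 0.309 to 0.370 in WT and 0.322, 0.420, 0.288 and 0.268. By size, Elane and Mpo fell by similar amounts, and Prtn3 and Ctsg fell less relative to Elane in these libraries. The ratios in replicates 2 to 4 of the mice labelled FcγRIIB-/- rest on few reads. These were 21 to 34 of Elane, 26 to 63 of Prtn3 and 17 to 25 of Ctsg. For Elane to Ctsg, replicate 1 (2.02) lay close to the lowest WT ratio (2.23). S100a8 to S100a9 changed little in size but was separate, at 0.71 to 0.757 in WT and 0.792, 0.927, 0.884 and 1.06 in the libraries labelled FcγRIIB-/-. Of the 15 pairs among the later genes 8 were separate, and of the 24 pairs of a primary with a later gene 5 were, beside the same 30.0%. Pairs that share a gene are not independent, so these counts are not read as a difference between the kinds of pair.

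**Figure D4:**
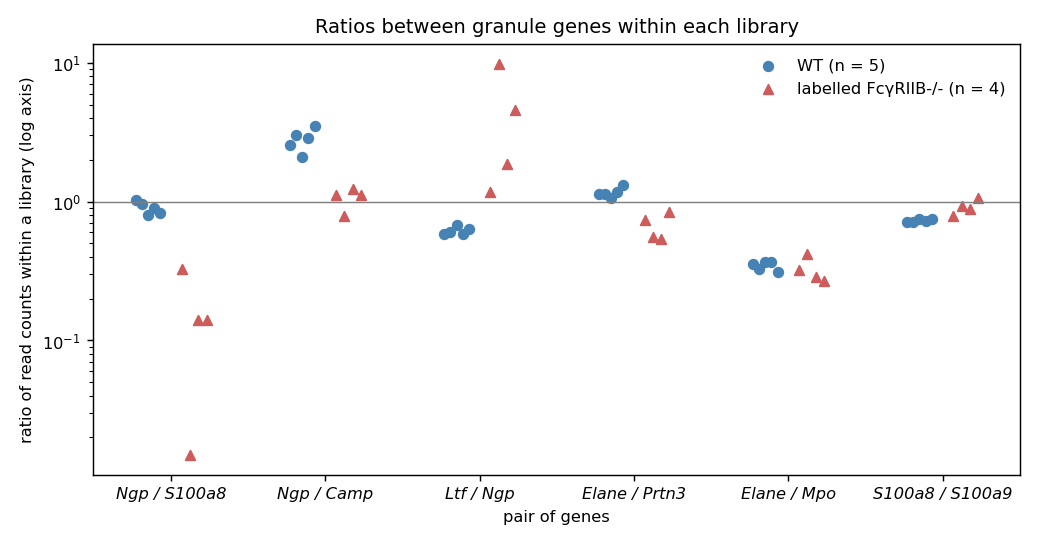
Ratio of read counts of 6 pairs of genes within each library (log axis, line at a ratio of 1), for 5 WT libraries (circles) and 4 libraries labelled FcγRIIB-/- (triangles). Elane to Mpo overlaps between the groups and the other 5 pairs do not; Ngp to S100a8 reaches 0.0149 in replicate 2.

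Other genes of the same granules were lower too. In a list of 10 further primary granule and promyelocyte genes, 9 could be tested, 7 were lower and 0 were higher, with a median log2 fold change of -2.21 beside 0.0055 over all tested genes. Over all tested genes, 19.3% were lower and 14.0% were higher. Fcnb, the ficolin of the maturing granulocyte, had 263, 254, 150, 297 and 507 reads in WT and 43, 2, 6 and 6 in the libraries labelled FcγRIIB-/- (log2 fold change -4.27, SE 0.60, adjusted p = 0.000955, edgeR). Prss57, a serine protease of the primary granule, was at -3.58, and Ms4a3, a membrane protein of granulocyte and monocyte progenitors, was at -3.08. Cst7 was at -2.53, Nkg7 at -2.21 and Lyz2, the lysozyme also made by macrophages, at -1.30, and its reads can be shared with its near-identical neighbour Lyz1. Ctsc, the protease that activates the serine proteases of the granule, did not pass (log2 fold change 0.01, adjusted p = 0.942), nor did Srgn, the proteoglycan that packs them (-0.82, adjusted p = 0.0600, both by edgeR). Srgn did pass as lower with the library total alone as scaling (adjusted p = 0.0446) and without WT replicate 3 (adjusted p = 0.0358, both by edgeR).

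Of 14 further genes of the secondary and tertiary granules, 12 were lower and 0 were higher, with a median log2 fold change of -2.26. The shares over all tested genes were 19.3% lower and 14.0% higher. Itgb2l had 269, 198, 141, 265 and 573 reads in WT and 24, 0, 18 and 2 in the libraries labelled FcγRIIB-/- (-4.59, SE 0.67, adjusted p = 0.00111, edgeR). Cd177, a surface protein of neutrophils, was at -4.54, the collagenase Mmp8 at -4.08, the chitinase-like Chil3 at -3.78, Olfm4 at -3.53 and the membrane protease Mmp25 at -3.47. Anxa1 (-0.13, adjusted p = 0.670) and Lrg1 (0.26, adjusted p = 0.159) did not pass the test (edgeR). Pglyrp1 (-1.41) passed over all mice (adjusted p = 0.0365, edgeR), but in 6 of the 9 fits without 1 mouse it did not, with adjusted p up to 0.0933. These were the fits without WT replicate 1, 4 or 5 and those without replicate 1, 2 or 3 of the mice labelled FcγRIIB-/-.

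Of 14 further genes of the mature neutrophil, 11 were lower and 0 higher, against 19.3% and 14.0% of all tested genes. Their median log2 fold change was -1.91. Ly6g, the antigen by which mouse neutrophils are sorted, had 64, 52, 34, 69 and 141 reads in WT and 3, 0, 1 and 1 reads in the libraries labelled FcγRIIB-/-, so its log2 fold change of -5.57 (SE 0.64, adjusted p = 0.000368, edgeR) rests on few reads in that group. The resistin-like Retnlg was at -3.13, the chemokine receptor Cxcr2 at -2.82 and the G-CSF receptor Csf3r at -1.99. Clec4e (-1.64, adjusted p = 0.0571), Il1r2 (-0.45, adjusted p = 0.429) and Clec4d (0.21, adjusted p = 0.760) did not pass the test (edgeR). Clec4e did pass as lower with DESeq2 (adjusted p = 0.0130) and, by edgeR, without WT replicate 3 (adjusted p = 0.0363).

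Among 10 transcription factors known to act on granule genes, 5 were lower and 2 were higher, against 19.3% and 14.0% of all tested genes, 3 did not pass, and the median was -0.41. Cebpe, the C/EBP factor of the secondary granule stage, had 149, 87, 88, 137 and 251 reads in WT and 15, 3, 6 and 2 in the libraries labelled FcγRIIB-/- (log2 fold change -4.30, SE 0.49, adjusted p = 0.000352, edgeR). Gfi1, a repressor that neutrophil precursors need, had 107, 94, 92, 126 and 243 reads in WT and 13, 7, 6 and 8 (-3.79, SE 0.39, adjusted p = 0.000208, edgeR). The groups did not overlap in either gene. Myb, a factor of proliferating progenitors, was at -2.24, Lmo2 at -0.60 and Spi1, which encodes PU.1, at -0.76. Spi1 lost its call without replicate 2 of the mice labelled FcγRIIB-/- (-0.67, adjusted p = 0.0584, edgeR).

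The C/EBP genes did not move together. Cebpe was lower, Cebpb was higher (0.63, adjusted p = 0.0118), and Cebpa (-0.22, adjusted p = 0.148) and Cebpd (0.27, adjusted p = 0.461) did not pass (edgeR). Runx1 was higher over all mice (0.44, adjusted p = 0.0313, edgeR), and its call was lost with the library total alone as scaling (0.36, adjusted p = 0.0859) and in 3 of the 9 fits without 1 mouse, those without WT replicate 1 (0.43, adjusted p = 0.0513) and without replicate 2 (0.33, adjusted p = 0.0910) or 3 (0.43, adjusted p = 0.0661) of the other group. Klf5 was at -0.16 (adjusted p = 0.352, edgeR).

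Of 6 genes of receptors that bind the granule and cytosolic proteins, 5 could be tested and 3 were lower, against 19.3% of all tested genes. Their median log2 fold change was -0.62. Fpr2, a receptor of cathelicidin that neutrophils carry themselves, was at -1.99, Tlr4, the receptor of S100A8 and S100A9, was at -0.90, and Lrp1, which takes up lactoferrin, was at -0.62. Ager (0.19, adjusted p = 0.532) and the lipocalin receptor Slc22a17 (0.25, adjusted p = 0.236) did not pass (edgeR).

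The granule genes were not the only ones of the marrow to be lower. The counts of these lists stand beside 19.3% of all tested genes that were lower. The erythroid list was lower in 8 of its 8 tested genes with a median log2 fold change of -4.05 and summed to 1629 to 1953 CPM in WT against 93.3 to 423 CPM. The B lineage list was lower in 9 of 10 (median -2.24), the megakaryocyte list in 8 of 8 (-1.55), the mast cell list in 6 of 7 (-1.52) and the list of eosinophil and basophil genes in 4 of 5 (-2.99). In the last, Prg2 rested on WT replicate 5, with 2509 reads against 35 to 62 in the other WT libraries, and its log2 fold change of -6.28 became -2.75 without that mouse. Prg2 lost its call without any 1 of the 4 mice labelled FcγRIIB-/- (adjusted p between 0.0607 and 0.0648, edgeR), which left 3 of 5, and with every gene of at least 1 count kept the median of the list was -5.69 over 9 genes. Of the B lineage genes, Ms4a1 lost its call without replicate 1, 2 or 4 of the mice labelled FcγRIIB-/- (adjusted p between 0.0532 and 0.0664, edgeR). Without 1 mouse, 8 to 10 genes of that list were lower. The monocyte and macrophage list was lower in 7 of 10 (median -0.74). Its monocyte genes Ly6c2 (-3.82), which can share reads with its close copy Ly6c1, and Ccr2 (-1.47) were lower, as were Mrc1 (-0.93), Csf1r (-0.86), Cx3cr1 (-0.86), Cd68 (-0.63) and Adgre1 (-0.60), which macrophages express. C1qa (-0.06), C1qb (0.20) and Ms4a7 (-0.02), also of macrophages, did not pass. Cd68 lost its call without replicate 1 or 3 of the mice labelled FcγRIIB-/-, and Adgre1 without replicate 2 or 4. In the T cell list 1 of 8 was lower (median -1.21), which is not above the share of all tested genes. That gene, Cd4, lost its call in 6 of the 9 fits without 1 mouse (WT replicate 2 or 5, or any of the other group). Without WT replicate 2 the list's median was -0.13. Their part in the levels of the granule genes was not tested.

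Lists of other tissues of the jaw moved in several directions, beside 19.3% of all tested genes lower and 14.0% higher. Skeletal muscle genes were higher in 5 of 8 (median 0.93) and summed to 6345 to 14861 CPM in WT and 15103 to 26163 CPM in the libraries labelled FcγRIIB-/-. Genes of keratinized epithelium were lower in 7 of 9 and higher in 1 (median -1.95). WT replicate 5, the highest WT library in the granule genes, was also the highest in their sum, with 10487 CPM against 3890 to 6664 CPM in the other WT libraries. In the libraries labelled FcγRIIB-/- the sum was 4696 to 5879 CPM, within the range of WT. Flg (-7.27), Lor (-6.75), Krt1 (-6.44) and Krt10 (-4.80) fell more than any of the 10 granule genes. Flg had 4, 0, 0 and 0 reads in the libraries labelled FcγRIIB-/-, and Krt1 ranged from 10.4 to 275 CPM in WT. Krt14 did not pass (0.24, adjusted p = 0.320, edgeR). Osteoblast genes were lower in 2 of 8, near the 19.3% of all tested genes, and had a median of -0.08. Genes of cell division were lower in 10 of 10 (median -1.02). Some of these counts moved when 1 mouse was left out: between 3 muscle genes (without replicate 1 or 4 of the mice labelled FcγRIIB-/-) and 7 (without WT replicate 1) were higher. Of the cell division genes, Ccnb1 lost its call in 6 of the 9 fits, all but those without WT replicate 2 or 3 or replicate 2 of the other group, and Bub1 lost it without WT replicate 4 or 5. The keratin gene that was higher, Krt5, lost its call without WT replicate 2 or 4 or without replicate 1, 2 or 3 of the other group. Krt6a, which was lower, lost its call without WT replicate 1 or any 1 mouse of the other group (adjusted p between 0.0540 and 0.0813, edgeR). The osteoblast gene Ibsp lost its call in 7 of the 9 fits, all but those without WT replicate 1 or 4. What share of the fall of the granule genes goes with the amount of marrow, muscle or mucosa in each sample was not tested.

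**Figure D5:**
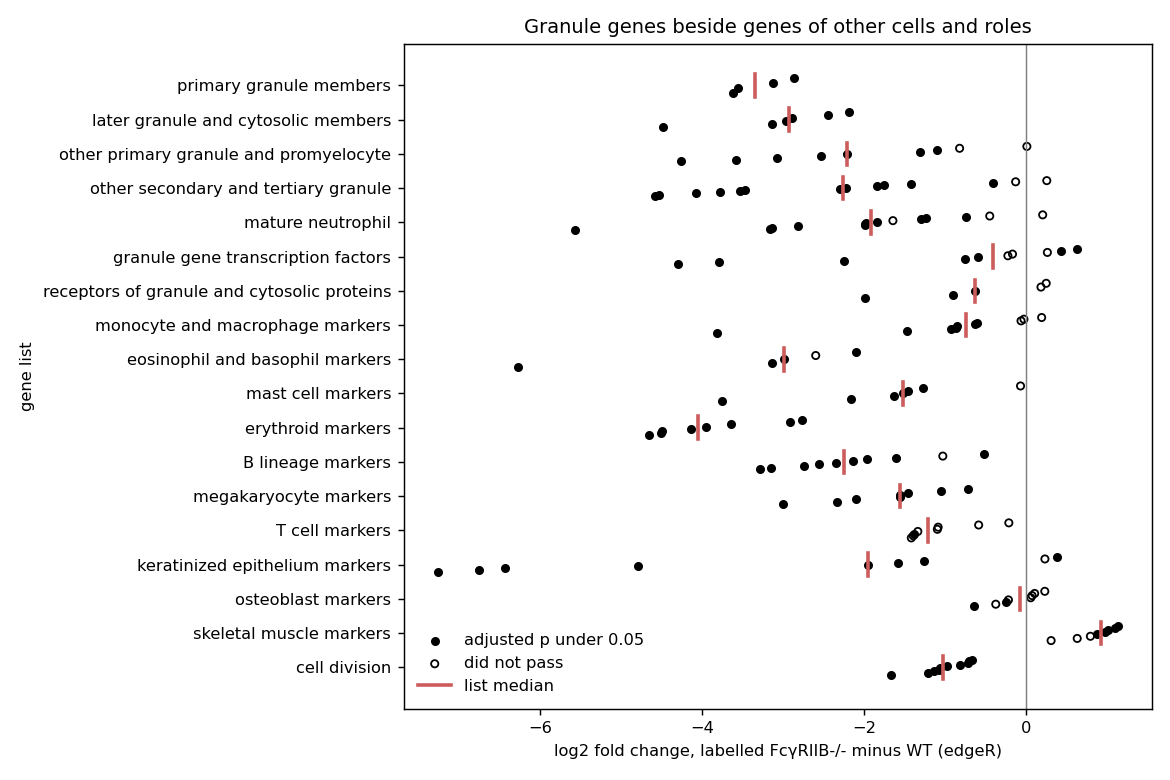
log2 fold change (labelled FcγRIIB-/- minus WT, edgeR) of each tested gene of 18 lists, 1 list per line, with filled points at an adjusted p under 0.05, open points for genes that did not pass and a red bar at the list median. The medians of the primary (-3.34) and later (-2.93) granule genes lie between those of the erythroid (-4.05) and the B lineage (-2.24) lists, and that of the osteoblast genes (-0.08) lies near 0.

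The genes most like each group over the 9 libraries were named by Pearson's r of log2 CPM with the mean of the group, which is a description, since all points share the step between the groups. With the primary granule genes these were Fcnb (r = 0.993), Trem3 (0.991), Prss57 (0.986), Itgb5 (0.984) and Sufu (0.984). Trem3 fell strongly (log2 fold change -4.09), whereas Itgb5 (-0.41) and Sufu (-0.67) had small falls. The later genes were most like Itgb2l (0.998), Chil3 (0.998), Cd177 (0.995), Prss57 (0.992) and Mcemp1 (0.987). After the group means were removed, r with the primary granule genes was 0.961 for Fcnb, 0.955 for Trem3, 0.914 for Prss57, 0.903 for Itgb5 and 0.898 for Sufu. With the later genes it was 0.993 for Itgb2l, 0.994 for Chil3, 0.977 for Cd177, 0.957 for Prss57 and 0.930 for Mcemp1. Prss57, a primary granule protease by its known role, was therefore among the 5 most like both groups.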

How the data were processed

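RNA-seq counts of whole mandibles from 5 WT mice and 4 mice labelled FcγRIIB-/- were used. The authors removed adaptors with Trim Galore, mapped reads to mm10 with HISAT (02.1.0) and deposited raw read counts per gene from featureCounts, without normalization. The gene annotation, the strand setting and the handling of multi-mapped reads are not given in the sources used here. Antisense, overlapping and near-identical genes are therefore uncertain. A further 1 per-sample column of the table fits no sample of the labels and was left out.

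The following was computed from the deposited counts in R 4.3.3. Genes were filtered with filterByExpr (minimum count 10), scaled by TMM and tested for genotype, with no covariate, by the quasi-likelihood test of edgeR 4.0.16 over all 16329 genes kept, with Benjamini-Hochberg adjustment and a threshold of 0.05. Standard errors were derived from the log2 fold change and its F statistic. A prior count of 2 went into log2 CPM. Each mouse was 1 replicate, so p-values measure the spread between mice. The 16 pairs of libraries within a group were compared, and 0 agreed within sampling noise. At 21453880 to 28991631 counts per library, low values rest on few reads (0.878 CPM of Ngp on 19), where counting error adds to the spread. DESeq2 1.42.0, other scalings, filters, a replicate block and leaving out each mouse were alternatives.

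The 10 genes and the gene lists were chosen with earlier results of these data known. Named are the 10 genes, Fcgr2b and the 5 genes most like each group. A rule was used for the granule, mature neutrophil, transcription factor, receptor and monocyte lists. It names up to 6 genes with the largest change among those that passed, and genes that did not pass. In the other lists, and for genes such as Runx1 and Cyba, naming did not follow this rule. Pglyrp1, Adgre1, Krt5, Krt6a, Ms4a1, Ibsp, Ccnb1 and Bub1 were named after their values were seen, since they lost their call when 1 mouse was left out. Other members of the lists are given as counts, and 1 gene that the rule covers is not reported here. Exon lengths for CPM per kb were unions of GENCODE exons (vM21, mm10), and gene positions and promoters are those of RefSeq (GRCm38.p6).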

Additional observations from a re-analysis of the deposited data

Results flagged for a closer look

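Of 22 groups of 4 or 5 libraries examined (each of the 10 genes, and the difference between primary and later genes, by genotype), 1 had a library far from the rest. It was Ctsg in the mice labelled FcγRIIB-/-, where replicate 1 had a log2 CPM of 1.92 and the nearest of the other 3 had 0.19, a gap of 0.863 of the whole range. Chance marks about 1 in 20 such groups. Replicate 1 was also the highest of these mice in the other 3 primary granule genes.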

How the results depend on the processing

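All 10 genes were lower, and 0 were higher, under each alternative run: RLE and upper-quartile factors, library total alone, both other filters, DESeq2, the replicate block, each of the 9 fits without 1 mouse, and the fit without both WT replicate 5 and replicate 1 of the mice labelled FcγRIIB-/-, which was added after the data were seen. Of all tested genes, 13.6% to 23.2% were lower under these alternatives. Without 1 mouse, the median of the primary granule genes ranged from -4.37 to -3.03 and that of the later genes from -3.18 to -2.60. The difference between primary and later genes ranged from -0.56 to 0.024 in those fits, the positive value being that without replicate 3 of the mice labelled FcγRIIB-/-. Without both mice the difference was -0.57. Over all genes, 1781 to 2292 were higher and 2521 to 2771 were lower in the fits without 1 mouse. Without both mice 1772 were higher and 2225 lower. With the library total alone 1309 were higher, and DESeq2 gave 2831 higher and 3204 lower.

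The replicate numbers did not pair the mice: deviations of same-numbered mice correlated at -0.114 to 0.0969, and 0 of 4 mice labelled FcγRIIB-/- correlated best with the WT mouse of their number. With the replicate block 1594 genes were higher (9.76% of those tested) and 2410 lower (14.8%), and the 10 genes had an adjusted p of at most 0.00728 (edgeR). The block ended the calls of the list genes Cyba, Spi1 (-0.59, adjusted p = 0.0937, edgeR), Adgre1, Ms4a1, Cd4 and Bub1, and 8 of 8 muscle genes were then higher.

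Of the 117 list genes that passed, 102 did so in every fit without 1 mouse, the 10 granule genes among them. The same share over all called genes was not computed, and the lists were chosen with earlier results known. These counts therefore do not mark the list genes or the 10 granule genes. The values that changed sign were not called. In the fits without 1 mouse or without both, Ctsc ranged from -0.071 to 0.097, Anxa1 from -0.40 to 0.060, Il1r2 from -0.61 to 0.056, Clec4d from -0.34 to 0.54, Cebpd from -0.031 to 0.47, Ms4a7 from -0.084 to 0.12, C1qa from -0.16 to 0.085, Kit from -0.11 to 0.020, Cd3g from -1.26 to 0.0018, Col1a1 from -0.023 to 0.19, Dmp1 from -0.045 to 0.32 and the osteoblast median from -0.12 to 0.0015. With the library total alone Ctsc was at -0.060 and Col1a1 at -0.023, and with the replicate block Col1a1 was at -0.011. Fcgr2b passed as higher without WT replicate 2 (0.46, adjusted p = 0.0131, edgeR). The cause was not tested.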
